A study of Mus musculus with 18 samples.

Results

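RNA of 43 genes that act in DNA replication or in mitosis was followed in mouse macrophages, as 21 replication genes and 22 mitosis genes out of 16474 genes listed. The genes were chosen by symbol from their known roles, with earlier results of these data known, so counts over them describe this set only. All 43 were listed and passed the filter on low values. Macrophages were grown from the bone marrow of C57BL/6 mice aged 8 weeks. The mice were wild type (WT) or p110g-/-, which lack p110gamma, the product of Pik3cg and the catalytic part of a lipid kinase of leukocytes. Marrow of both genotypes was cultured for 6 days with 50 ng/ml M-CSF, the growth factor that drives macrophages to survive and divide. All groups then received 20 ng/ml M-CSF. It was given alone for 24 h (M-CSF), with interferon gamma and 100 ng/ml lipopolysaccharide for 24 h (IFNg/LPS), or with 20 ng/ml interleukin-4 for 48 h (IL-4). Each of the 6 groups held 3 libraries, 18 in all, numbered 1, 2 and 3 in the labels. The labels do not say whether these came from separate animals or cultures, so p-values measure the spread between these libraries, which may be technical. The deposited values are read counts scaled by 1 factor per library, given below as normalised signal.

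A dividing cell copies its DNA once and then separates the copies. Replication begins at origins on which the hexameric helicase Mcm2 to Mcm7 is loaded by Cdc6 and Cdt1, is switched on with Cdc45, GINS and Mcm10, and proceeds with polymerases, the sliding clamp Pcna and a supply of deoxynucleotides. Mitosis is driven by Cdk1 with cyclins A and B, by Polo and Aurora kinases and by the spindle, and ends when Cdc20 and Ube2c let the anaphase-promoting complex mark cyclin B for destruction. Replication genes are classical targets of E2F factors, whereas mitosis genes are classical targets of B-Myb, FoxM1 and the DREAM complex through an element called CHR. M-CSF is the mitogen of cultured macrophages, interferon gamma and lipopolysaccharide are known to halt their cycle, and interleukin-4 is known to let tissue macrophages divide.

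Libraries held 40.1 to 69.6 M reads, and 1 read was worth 0.717 to 1.58 units of signal. In every group library 1 stood apart from libraries 2 and 3, with a chi-square per gene of 39.3 or more against them and of 46.8 or less between libraries 2 and 3. In M-CSF and IL-4 it held a higher summed signal of 7 neutrophil markers, for example 32062 in WT M-CSF library 1, against 7142 and 10843 in libraries 2 and 3. Among these markers Retnlg went the other way, with 9.2, 21.8 and 39 in WT M-CSF libraries 1, 2 and 3. The summed signal of 4 B cell markers was also highest in library 1 of these groups (427.1, 164.2 and 176.5 in WT M-CSF). The 8 macrophage markers (among them Csf1r and Lyz2) were listed in every library, with summed signals of 450218 or more. Pik3cg fell in p110g-/- libraries in M-CSF (log2 fold change −1.41, adjusted p = 0.0027) and in IL-4 (−1.63, adjusted p = 0.00063). In IFNg/LPS it did not pass the test (−0.34, adjusted p = 0.37), and the library labelled p110g-/- IFNg/LPS number 1 had 3691.4, above the 3559.5, 2309.0 and 2604.2 of WT. Without that library Pik3cg was lower in p110g-/- IFNg/LPS (−0.71, adjusted p = 0.007), and likewise with libraries 2 and 3 only (−0.53, adjusted p = 0.023). The genotype of that library is taken from its label.

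Promoters of both classes were searched for these elements. Windows from 250 bases before to 50 bases after the RefSeq start (build GRCm38.p6) were found for 19 of 21 replication genes and 18 of 22 mitosis genes. Letters of the E2F type (TTTCCCGC, TTTCGCGC, TTTGCCGC or TTTGGCGC, either strand) occurred in 8 of 19 replication windows (42.1%) and in 1 of 18 mitosis windows (5.56%), against 3.97% of 11494 tested genes with a window. CHR letters (TTTGAA or TTCGAA, either strand) occurred in 14 of 18 mitosis windows (77.8%) and 4 of 19 replication windows (21.1%), against 14.6% of tested genes. CCAAT, the box bound by NF-Y, occurred in 16 of 18 mitosis and 14 of 19 replication windows, against 39.3% of tested genes. These counts describe letters and not bound sites. The 170 bases before the start are shown for 8 genes whose RNA is described below, in the direction of the gene. Capitals mark E2F type letters, CHR letters and CCAAT, which can overlap where they occur on both strands. Mcm5 and Mcm6 (helicase subunits) and Cdc6 (helicase loader) carry E2F type letters. Tyms (thymidylate synthase), a replication gene that rose in IFNg/LPS, had no match in its window. The windows of Tk1, which fell in WT IFNg/LPS, and of E2f1 also had no match. E2F type letters occurred in the windows of Rfc3, which rose in WT IFNg/LPS, and of Cdt1, which was not called there. A link between letters and response was not tested. Cdk1 (the mitotic kinase), Cdc20 (activator of the anaphase-promoting complex), Kif11 (a spindle motor) and Ccnb2 (cyclin B2) carry CHR letters together with CCAAT.
Mcm5, GRCm38.p6 chr8:75109339-75109508, plus strand: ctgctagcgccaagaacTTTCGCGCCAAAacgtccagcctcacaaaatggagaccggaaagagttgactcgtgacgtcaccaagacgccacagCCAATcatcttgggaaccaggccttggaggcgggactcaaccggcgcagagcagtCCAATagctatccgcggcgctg
Mcm6, GRCm38.p6 chr1:128359706-128359875, minus strand: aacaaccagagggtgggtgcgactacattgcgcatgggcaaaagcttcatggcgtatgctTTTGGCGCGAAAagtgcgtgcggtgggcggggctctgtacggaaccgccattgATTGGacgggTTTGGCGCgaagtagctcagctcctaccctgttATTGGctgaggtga
Cdc6, GRCm38.p6 chr11:98907981-98908150, plus strand: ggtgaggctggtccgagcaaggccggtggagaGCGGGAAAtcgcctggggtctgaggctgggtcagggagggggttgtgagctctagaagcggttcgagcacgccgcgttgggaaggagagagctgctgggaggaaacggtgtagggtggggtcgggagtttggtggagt
Tyms, GRCm38.p6 chr5:30073626-30073795, minus strand: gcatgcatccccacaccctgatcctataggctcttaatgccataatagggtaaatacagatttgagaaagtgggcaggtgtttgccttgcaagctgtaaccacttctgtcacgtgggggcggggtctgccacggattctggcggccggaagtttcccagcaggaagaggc
Cdk1, GRCm38.p6 chr10:69352913-69353082, minus strand: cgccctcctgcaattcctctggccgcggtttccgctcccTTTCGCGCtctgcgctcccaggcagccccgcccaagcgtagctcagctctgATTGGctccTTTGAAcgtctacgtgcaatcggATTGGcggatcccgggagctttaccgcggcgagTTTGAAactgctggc
Cdc20, GRCm38.p6 chr4:118437344-118437513, minus strand: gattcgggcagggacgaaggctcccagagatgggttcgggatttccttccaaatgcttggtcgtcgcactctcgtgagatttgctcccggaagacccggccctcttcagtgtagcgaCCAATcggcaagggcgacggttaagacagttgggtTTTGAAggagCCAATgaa
Kif11, GRCm38.p6 chr19:37376212-37376381, plus strand: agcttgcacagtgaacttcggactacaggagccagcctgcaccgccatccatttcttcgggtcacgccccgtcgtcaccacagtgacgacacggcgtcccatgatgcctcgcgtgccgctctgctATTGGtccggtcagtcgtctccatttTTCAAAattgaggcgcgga
Ccnb2, GRCm38.p6 chr9:70421555-70421724, minus strand: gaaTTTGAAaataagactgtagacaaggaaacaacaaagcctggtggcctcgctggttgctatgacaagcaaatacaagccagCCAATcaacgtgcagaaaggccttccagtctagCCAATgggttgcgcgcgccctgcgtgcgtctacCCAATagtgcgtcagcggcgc

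**Figure D1:**
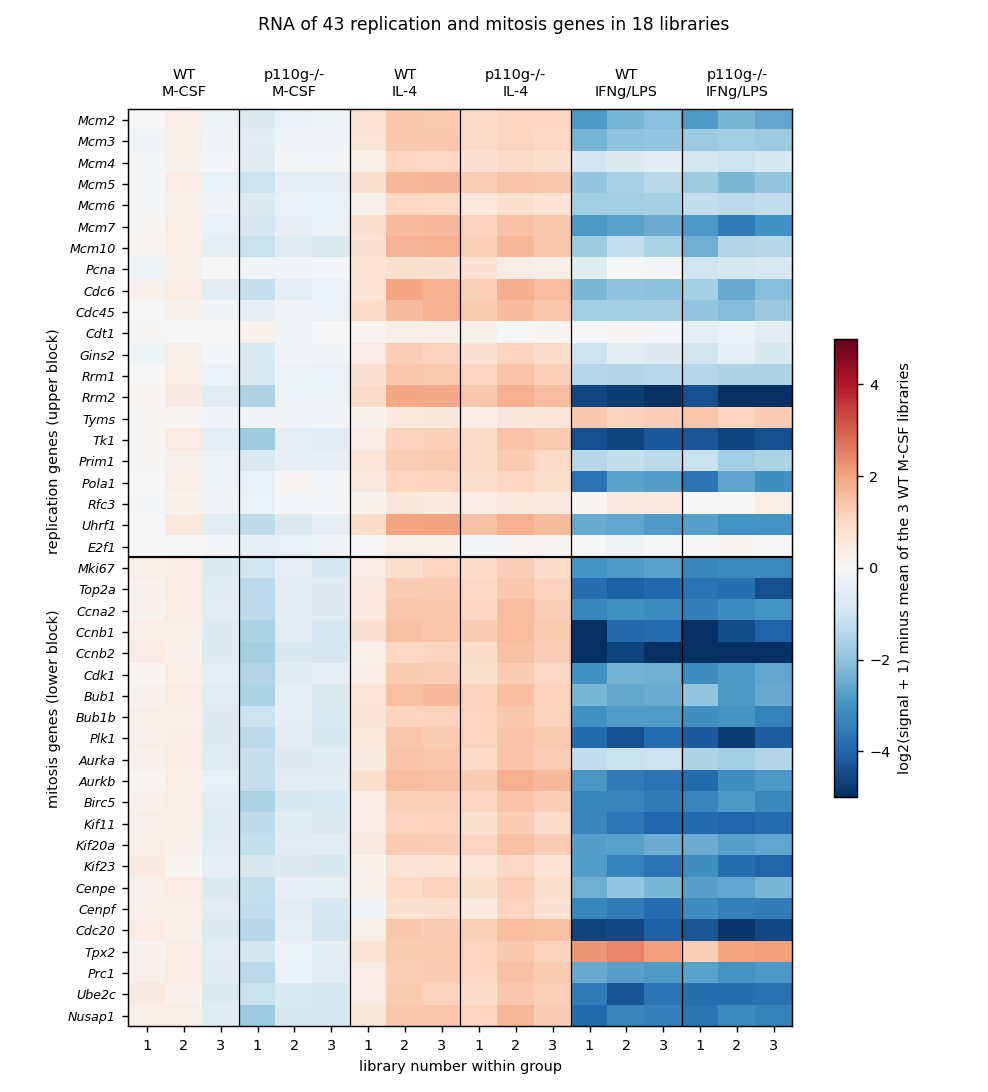
Each row is 1 gene and each column 1 library, grouped by genotype and stimulus. Colour gives log2(signal + 1) minus the mean of the 3 WT M-CSF libraries, and the colour scale ends at 5 in both directions. Nearly all rows are blue in IFNg/LPS and red in IL-4, with Tyms and Tpx2 red in IFNg/LPS.

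Most of these RNAs were lower with IFNg/LPS in WT cells, and the median fall was larger for mitosis than for replication genes. Of 22 mitosis genes, 21 fell and 1 rose, with a median log2 fold change of −3.33. Of 21 replication genes, 16 fell, 2 rose and 3 did not pass the test, with a median of −1.65. Of all 15627 genes tested, 37.5% fell and 36.3% rose at an adjusted p under 0.05, with a median of −0.01. In p110g-/- cells 21 mitosis genes fell and 1 rose (median −2.41), and 17 replication genes fell and 2 rose (median −1.06), against 36.8% of all genes lower and 36.2% higher. In bulk RNA, fewer cells in cycle and less RNA per cycling cell cannot be told apart.

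Within replication, the 6 helicase genes Mcm2 to Mcm7 all fell in both genotypes. Mcm7 fell by 2.67 and Mcm4 by 0.72 on the log2 scale in WT, the ends of their range. Mcm5 had signals of 1255.2, 1652.1 and 1037.0 in WT M-CSF and 336.6, 416.4 and 492.7 in WT IFNg/LPS (log2 fold change −1.65 ± 0.25 SE, adjusted p = 1.8e-05). The 2 groups did not overlap, and the same was true of p110g-/-, with 605.8, 969.4 and 958.7 in M-CSF and 378.0, 267.7 and 332.3 in IFNg/LPS. The loader Cdc6 fell by 2.10 in WT and 1.47 in p110g-/-. Its partner Cdt1 had a log2 fold change of −0.02 in WT (adjusted p = 0.85) and fell by 0.47 in p110g-/- (adjusted p = 0.00012). In the fit reported, only Mcm6 of the 43 genes passed the test of a difference between genotypes in this response (the interaction, given below). Of the helicase activators, Cdc45 fell by 1.71 and Mcm10 by 1.50 in WT. The GINS subunit gene Gins2 fell by 0.76 in WT and had −0.36 in p110g-/- (adjusted p = 0.17), where it was called lower with libraries 2 and 3 only (−0.47, adjusted p = 0.0097) and without p110g-/- M-CSF library 1 (−0.57, adjusted p = 0.044). Mcm10 fell by 0.95 in p110g-/-, a call lost without p110g-/- IFNg/LPS library 1 (−0.62, adjusted p = 0.084).

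The polymerase alpha and primase genes, which start each new strand, had log2 fold changes of −3.04 (Pola1, adjusted p = 7e-08) and −1.33 (Prim1, adjusted p = 2e-05) in WT. The clamp and clamp loader genes gave other values. Pcna had 20029.2, 26376.5 and 23001.6 in WT M-CSF and 15178.2, 23473.1 and 22341.9 in WT IFNg/LPS, overlapping ranges (log2 fold change −0.20, adjusted p = 0.22). In p110g-/- it went from 20323.1, 20744.4 and 21992.0 to 11512.7, 12353.4 and 13605.7 without overlap (−0.75, adjusted p = 0.00026). The difference between genotypes in this response of Pcna did not pass the interaction test in the fit reported. Rfc3, a subunit of the clamp loader, rose by 0.35 in WT (adjusted p = 0.027). That call was lost without WT M-CSF library 1 or 3 or WT IFNg/LPS library 2 or 3, with adjusted p of 0.073 to 0.1.

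The genes of deoxynucleotide supply moved in opposite directions. Rrm2, the S-phase subunit of ribonucleotide reductase, had 1010.9, 1262.5 and 637.6 in WT M-CSF and 38.4, 33.6 and 28.4 in WT IFNg/LPS. This was 27.3-fold lower (log2 fold change −4.77 ± 0.37 SE, adjusted p = 1e-08), with no overlap. Rrm1, its partner subunit, fell by 1.44, and Tk1, the thymidine kinase that salvages thymidine, fell by 4.39. Tyms, which makes thymidylate from deoxyuridylate, had 1016.3, 1016.1 and 873.6 in WT M-CSF and 2441.9, 2126.0 and 2256.8 in WT IFNg/LPS (log2 fold change 1.23 ± 0.10 SE, adjusted p = 2.7e-08). It also rose in p110g-/- (1.39, adjusted p = 6.5e-09), again with every IFNg/LPS library above every M-CSF library. Uhrf1, which carries DNA methylation over to new strands, fell by 2.65 in WT. E2f1, an activator of replication genes, had −0.07 in WT (adjusted p = 0.53) and rose by 0.36 in p110g-/- (adjusted p = 0.0022). Its interaction did not pass the test.

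**Figure D2:**
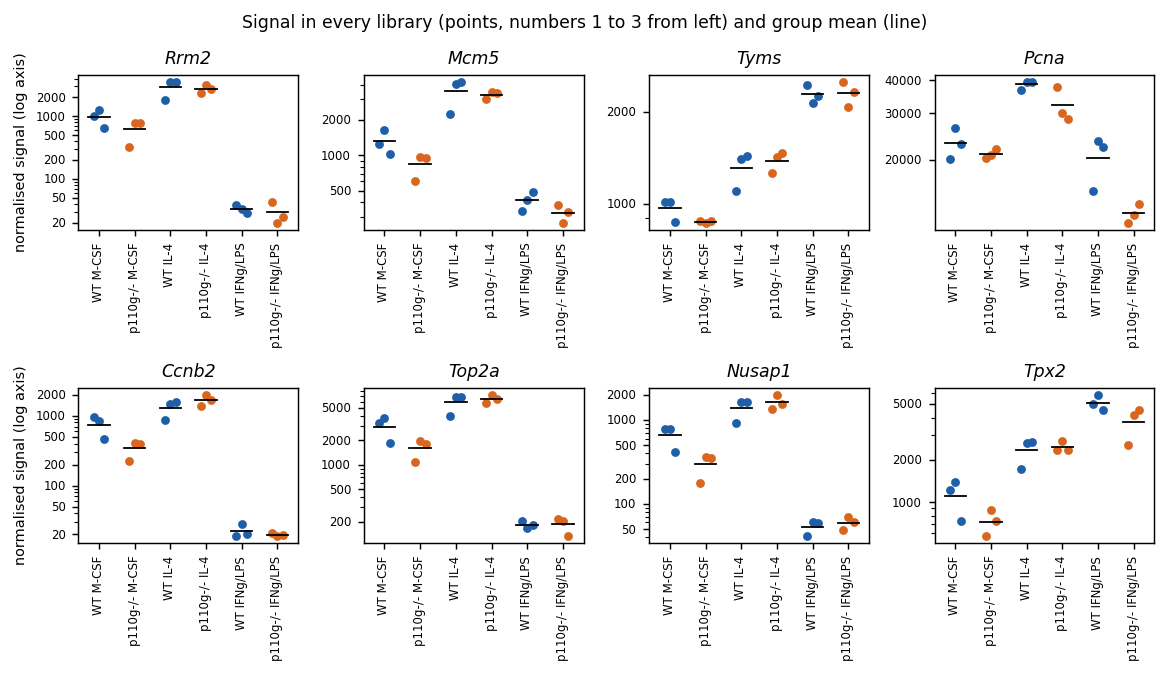
Normalised signal on a log axis for 8 genes, with WT libraries in blue, p110g-/- libraries in orange and a line at each group mean. Rrm2, Mcm5, Ccnb2, Top2a and Nusap1 are lowest in IFNg/LPS, while Tyms and Tpx2 are highest there.

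Among mitosis genes, the B-type cyclins had the largest falls in WT. Ccnb2 had 944.1, 834.4 and 459.0 in WT M-CSF and 19.2, 28.0 and 20.5 in WT IFNg/LPS, 30.7-fold lower (log2 fold change −4.94 ± 0.29 SE, adjusted p = 4.8e-10). In p110g-/- it went from 226.5, 412.0 and 400.0 to 20.9, 19.0 and 19.5 (−4.01 ± 0.29 SE, adjusted p = 5.4e-09). In neither genotype did the groups overlap. In WT the log2 fold change was −4.54 for Ccnb1, −3.16 for Ccna2 (cyclin A2) and −2.61 for their kinase Cdk1, all called. Among the mitotic kinases, the values were −4.05 for Plk1, −3.36 for Aurkb and −1.15 for Aurka, the spindle pole kinase, which had the smallest fall of the class. Aurka also had the smallest fall in p110g-/- (−0.78, adjusted p = 0.013), a call lost without p110g-/- M-CSF library 3 (−0.68, adjusted p = 0.052). Birc5 (survivin), which guides Aurkb to centromeres, had −3.36 in WT and −2.08 in p110g-/-, both called.

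Genes of the spindle checkpoint, which holds cells until chromosomes are attached, also fell in WT, with −2.44 for Bub1 and −2.87 for Bub1b. Those of the anaphase-promoting complex fell too, with −4.38 for Cdc20 and −3.83 for Ube2c. All 4 motor genes fell, with log2 fold changes of −3.62 for Kif11, −2.63 for Kif20a, −3.29 for Kif23 and −2.21 for Cenpe. The kinetochore gene Cenpf had −3.55, the midzone bundling gene Prc1 −2.69 and Nusap1, a microtubule binder of the spindle, −3.55, all called. Top2a, the topoisomerase that untangles sister DNA, had 3223.4, 3798.8 and 1841.3 in WT M-CSF and 202.3, 168.1 and 184.8 in WT IFNg/LPS, 15.2-fold lower (adjusted p = 4.9e-09). Mki67, the proliferation marker that coats mitotic chromosomes, fell by 2.83.

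Tpx2, which activates Aurka and nucleates spindle microtubules, was the exception among mitosis genes. It had 1222.2, 1378.7 and 728.5 in WT M-CSF and 4994.5, 5802.9 and 4494.6 in WT IFNg/LPS (log2 fold change 2.24 ± 0.25 SE, adjusted p = 7.9e-07). In p110g-/- it went from 572.5, 873.2 and 732.6 to 2536.5, 4181.1 and 4500.1 (2.34 ± 0.25 SE, adjusted p = 5e-07). Every IFNg/LPS library lay above every M-CSF library in both genotypes.

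**Figure D3:**
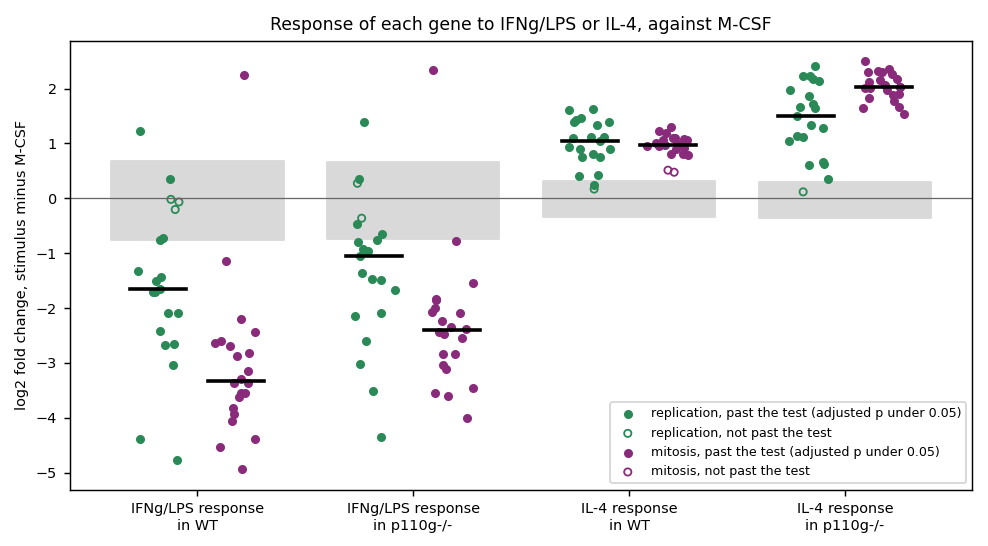
Each point is 1 gene's log2 fold change against M-CSF of the same genotype. Filled points passed the test, black lines are class medians, and grey boxes span the middle quartiles of all tested genes. The mitosis medians lie below the replication medians in IFNg/LPS, at −3.33 against −1.65 in WT.

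With IL-4, RNA of both classes rose. In WT 20 of 21 replication genes rose (median log2 fold change 1.04) and 20 of 22 mitosis genes rose (median 0.98), and none fell, against 22.9% of all tested genes higher and 21.1% lower. In p110g-/- 20 of 21 replication genes (median 1.50) and 22 of 22 mitosis genes (median 2.03) rose and none fell, against 22.7% higher and 21.2% lower. Because IL-4 cells were harvested at 48 h and M-CSF cells at 24 h, effects of IL-4 and of time cannot be told apart. Responses to both stimuli use the same M-CSF libraries, so they are not independent of each other.

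In WT the count of mitosis genes called depended on the libraries included. The count of replication genes called higher ranged from 16 to 21 when 1 library was left out. WT M-CSF library 3 was the lowest of its group for 22 of 22 mitosis genes, and WT IL-4 library 1 was the lowest of its group for all 43 genes. The count of mitosis genes called higher fell from 20 to 7 without WT M-CSF library 3, and to 12 without WT IL-4 library 2 or without WT IL-4 library 3. Over all tested genes, 3577 of 15627 were called higher in the fit reported. Without these libraries, in the same order, 3060 of 15604, 2883 of 15613 and 2919 of 15612 were. All 22 mitosis genes were called with libraries 2 and 3 of each group only (median 1.39), where 4213 of all 15260 genes were higher. Ccnb2 shows this, with 944.1, 834.4 and 459.0 in WT M-CSF and 856.2, 1480.6 and 1550.7 in WT IL-4 (0.81 ± 0.29 SE, adjusted p = 0.034), overlapping ranges. Kif23 (0.51, adjusted p = 0.14) and Cenpf (0.48, adjusted p = 0.19) did not pass the test. Both did with libraries 2 and 3 only (Kif23 0.89, adjusted p = 0.0014, and Cenpf 0.92, adjusted p = 0.013), and Cenpf also did without WT IL-4 library 1 (0.79, adjusted p = 0.028). In p110g-/- no library overlapped for any of the 22 mitosis genes, against 29.9% of all tested genes higher without overlap, and all 22 were called without any 1 library. Ccnb2 there went from 226.5, 412.0 and 400.0 to 1365.3, 1985.5 and 1665.7 (2.30 ± 0.29 SE, adjusted p = 1.5e-05).

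The replication genes with the largest rise in WT were Uhrf1 (1.63), Rrm2 (1.60) and Cdc6 (1.47). Rrm2 reached 1832.2, 3574.1 and 3505.4 in IL-4 libraries of WT. Its p110g-/- values with IL-4 were 2353.9, 3169.6 and 2756.3, and in both genotypes these lay above every M-CSF library of its genotype. Mcm5 reached 2239.9, 4034.5 and 4236.2 in WT (1.38 ± 0.25 SE, adjusted p = 0.00036) and 3006.8, 3440.9 and 3371.5 in p110g-/- (1.98 ± 0.25 SE, adjusted p = 1.2e-05). Among genes that had not fallen in WT IFNg/LPS, Pcna rose by 0.75 and Tyms by 0.43, and Cdt1 by 0.24 (adjusted p = 0.031). The call on Cdt1 was lost without any 1 of WT M-CSF library 2 or 3 or WT IL-4 library 2 or 3, with adjusted p of 0.077 to 0.1. Calls on Tk1, Rfc3 and Pola1 in WT were also lost without some single libraries, with adjusted p of up to 0.15. E2f1 had 0.17 in WT (adjusted p = 0.15), where it was called without WT IL-4 library 1 (0.26, adjusted p = 0.027) and with libraries 2 and 3 only (0.28, adjusted p = 0.016), and it rose by 0.35 in p110g-/- (adjusted p = 0.0061).

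Signal fell in the order IL-4, M-CSF, IFNg/LPS with no overlap between neighbouring groups for 29 of 43 genes in WT, 15 replication and 14 mitosis genes, against 12.4% of all tested genes. In p110g-/- the count was 37 of 43, with 16 replication and 21 mitosis genes, against 12.2%. For Ccnb2, Kif23, Cenpe, Cenpf, Cdc20, Prc1 and Ube2c, 7 mitosis genes that broke the order in WT, a WT IL-4 library overlapped WT M-CSF. Tpx2 broke the order in both genotypes, and so did Tyms, Cdt1, Rfc3 and E2f1.

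The p110g-/- libraries were compared with WT under each stimulus. In M-CSF all 22 mitosis genes had lower values in p110g-/-, with log2 fold changes of −1.15 to −0.58 and a median of −0.85, and 20 of 21 replication genes had lower values, with a median of −0.43. None of the 43 passed the test, against 1.06% of all genes higher and 1.27% lower. An unadjusted limma p under 0.05 was held by 22 mitosis and 9 replication genes, against 2057 of all 15627 tested genes. Groups did not overlap, with p110g-/- lower, for 10 mitosis and 7 replication genes, against 10.9% of all tested genes. The smallest adjusted p was 0.051, for Birc5, with 804.3, 881.5 and 469.8 in WT and 231.0, 397.8 and 405.7 in p110g-/- (log2 fold change −1.05 ± 0.26 SE). Nusap1 had 788.9, 771.5 and 410.3 in WT and 178.2, 362.8 and 352.5 in p110g-/- (−1.15 ± 0.31 SE, adjusted p = 0.074). For both, the lowest WT library lay just above the highest p110g-/- library.

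The calls in M-CSF depended on the libraries included and on the fit. Birc5 was called lower with a pseudocount of 10 (adjusted p = 0.048), with median centring (adjusted p = 0.049) and with edgeR (adjusted p = 0.04), and edgeR also called Ccnb2 (−1.11, adjusted p = 0.047). Without WT M-CSF library 3, the lowest WT library for 39 of 43 genes, 13 mitosis genes were called lower. In that fit 192 of all 15604 tested genes were lower and 110 higher. Without WT IL-4 library 1, which enters only the estimate of spread, Birc5, Ccnb2 and Mcm6 were called lower, against 219 of all 15597 genes. Without p110g-/- M-CSF library 3, 1 replication gene was called lower, against 200 of all 15602 genes. WT M-CSF library 3 had a mean over mitosis genes of −0.59 relative to the WT M-CSF mean on the log2 scale, beside −0.57 and −0.70 in p110g-/- M-CSF libraries 2 and 3. p110g-/- M-CSF library 1 was the lowest of its group for 41 of 43 genes, with a mean of −1.30. With libraries 2 and 3 of each group only, the mitosis median was −0.50, none of the mitosis genes was called, and Mcm6 was called lower (−0.38, adjusted p = 0.037). Summed neutrophil signal was 27036 in p110g-/- M-CSF library 1 and 10241 and 12504 in libraries 2 and 3. The summed signal of 6 fibroblast markers was 3557, 1577 and 1880 in p110g-/- M-CSF libraries 1, 2 and 3, against 2422, 459 and 371 in WT M-CSF, and the part of other cells in these values was not tested.

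**Figure D4:**
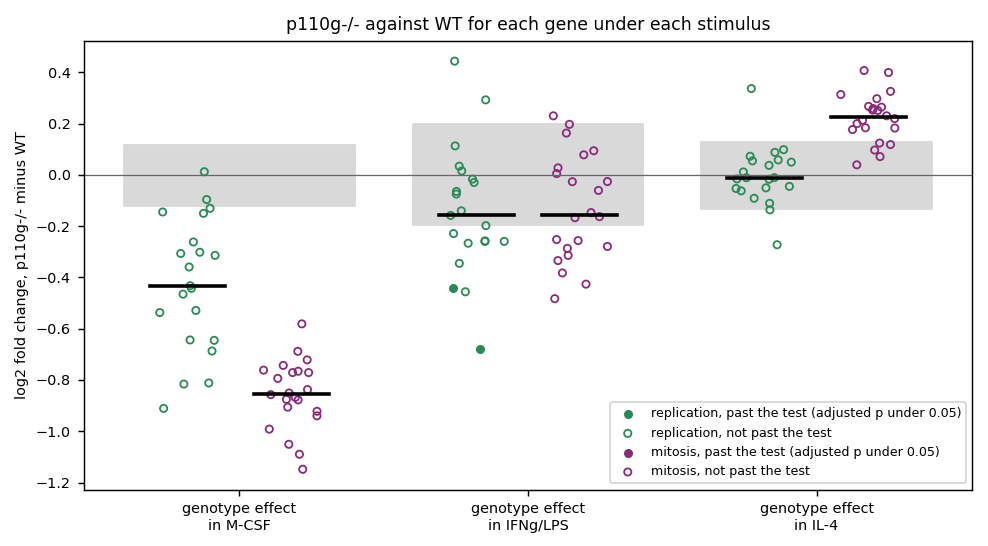
Each point is 1 gene's log2 fold change of p110g-/- against WT under 1 stimulus, open where the test was not passed. Black lines are class medians and grey boxes span the middle quartiles of all tested genes. The mitosis median is −0.85 in M-CSF, and 2 replication genes are filled in IFNg/LPS.

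In IFNg/LPS 2 replication genes were lower in p110g-/- and no mitosis gene was called, against 7.79% of all genes lower and 6.94% higher. They were the clamp Pcna (−0.68 ± 0.15 SE, adjusted p = 0.0061) and the loader Cdt1 (−0.44 ± 0.08 SE, adjusted p = 0.0029). Cdt1 had 1600.4, 1699.3 and 1495.6 in WT and 1138.6, 1270.0 and 1123.6 in p110g-/-, and neither gene's groups overlapped. Of all 43 genes 5 were lower without overlap, against 14.8% of all tested genes, so this count was near the background. Pcna and Cdt1 both kept the call without any 1 library and with libraries 2 and 3 only. With the library number as a block, Mcm6 was also called, higher in p110g-/- (0.44, adjusted p = 0.028), as it was without WT IL-4 library 1 (adjusted p = 0.0087). With libraries 2 and 3 only, Mcm4, Mcm5 and Mcm7 were lower as well, and Mcm6 and Aurkb were higher. In that fit 2199 of all 15260 tested genes were lower and 1944 higher. In IL-4 no gene of either class was called, against 1.34% of all genes higher and 1.99% lower. None of the 43 had an unadjusted limma p under 0.05, against 2348 of all 15627 tested genes. All 22 mitosis genes had positive values there (0.04 to 0.41, median 0.23), and the replication median was −0.01. Without WT IL-4 library 1 the mitosis median was −0.04, with 9 positive and 13 negative values, and the replication median −0.27. The mitosis median was 0.06 with libraries 2 and 3 only, where 15 of 22 values were positive, and the replication median was −0.19.

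The interaction asks whether a response differed between genotypes. For IFNg/LPS, 1 of 43 genes passed, the helicase subunit Mcm6 (0.91 ± 0.22 SE, adjusted p = 0.041), against 1.02% of all genes higher and 1.42% lower. Its signal was 2942.2, 3493.9 and 2737.6 in WT M-CSF and 906.5, 930.0 and 958.6 in WT IFNg/LPS. In p110g-/- it was 1903.6, 2372.6 and 2367.8 in M-CSF and 1294.4, 1227.3 and 1281.4 in IFNg/LPS. The p110g-/- values were lower than WT in M-CSF and higher in IFNg/LPS, without overlap in either. The call was lost without any 1 of these 12 libraries, or without p110g-/- IL-4 library 3, which enters only the estimate of spread, with adjusted p of 0.051 to 0.11. All 22 mitosis genes had positive interaction values (median 0.77), none past the test. Of the 22, 21 were positive with libraries 2 and 3 only, where the median was 0.27 and Aurkb was called (1.09, adjusted p = 0.015). Birc5 passed without WT M-CSF library 3 (1.56, adjusted p = 0.043). For IL-4, none of the 15627 genes passed (0% of all genes), by limma or by edgeR, with 1156 and 1178 genes at an unadjusted p under 0.05. All 22 mitosis genes had positive values there too (0.68 to 1.49, median 1.03), and 18 of them had an unadjusted p under 0.05. This median was 0.54 with libraries 2 and 3 only. Both interactions contain the same M-CSF libraries, including WT library 3 and p110g-/- library 1.

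**Figure D5:**
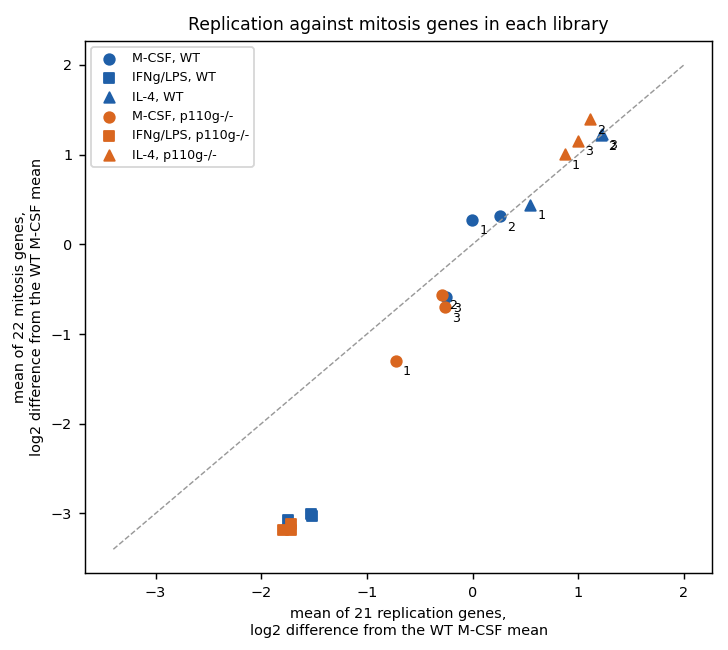
Each point is 1 library, at the mean log2 difference from the WT M-CSF mean over 21 replication genes (horizontal) and over 22 mitosis genes (vertical), with the library number beside M-CSF and IL-4 points. The dashed line marks equal change, and the 6 IFNg/LPS libraries lie far below it.

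Set side by side in each library, the classes moved by unlike amounts in IFNg/LPS and by similar amounts in WT IL-4. The mitosis mean minus the replication mean was −1.51 to −1.32 on the log2 scale in the 3 WT IFNg/LPS libraries and −1.46 to −1.39 in the 3 p110g-/- IFNg/LPS libraries. In IL-4 it was −0.103, −0.0021 and 0.0041 in WT, and 0.13, 0.28 and 0.16 in p110g-/-. In M-CSF it was 0.28, 0.06 and −0.33 in WT and −0.57, −0.27 and −0.44 in p110g-/-. WT M-CSF library 3 therefore lay among the p110g-/- M-CSF libraries in this difference. The reads on all 43 genes were 427 to 653 per M reads in the 6 IFNg/LPS libraries, 927 to 1676 in M-CSF and 1913 to 2862 in IL-4, with no overlap between stimuli. Pcna gave much of these sums. In WT IFNg/LPS library 2 replication genes had 527 with Pcna and 166 without it. Without Pcna the replication genes had 154 to 174 in IFNg/LPS, 294 to 533 in M-CSF and 598 to 1015 in IL-4, again with no overlap.

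Wider lists of the same pathways, also chosen with earlier results of these data known, were read beside these genes. Of 55 further replication and repair genes, 32 fell and 13 rose in WT IFNg/LPS, with a median log2 fold change of −0.47, against 37.5% of all tested genes lower and 36.3% higher. Clspn (claspin, of the fork checkpoint) fell by 5.06 and Dut (which keeps uracil out of DNA) by 3.10. The helicase gene Mcm9 rose by 2.26, Rnaseh2b (a subunit of an RNase that clears RNA from DNA) by 1.21 and Pold3 (a subunit of polymerase delta) by 0.97. Of 67 further mitosis genes, 60 fell and 3 rose, with a median of −2.26, against the same shares of all genes. Aspm (a spindle pole gene) fell by 6.72, Anln (anillin, of the cleavage furrow) by 5.07 and the kinetochore gene Casc5 by 4.28. Pttg1 (securin, which holds separase in check) rose by 2.16, Ccnf (cyclin F) by 0.90 and Hmmr (a spindle-associated hyaluronan receptor) by 0.53.

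In WT IL-4, 42 of the 55 further replication genes rose and none fell (median 0.73), against 22.9% of all tested genes higher and 21.1% lower. Among those that rose were Dut (1.98), Dna2 (a nuclease of lagging strand processing, 1.12) and Rnaseh2b (0.73). Of the 67 further mitosis genes 52 rose and 2 fell (median 0.94), against those same shares. Cks1b, a small partner of cyclin-dependent kinases, rose by 1.50, the chromokinesin gene Kif4 by 1.36 and Trip13, which helps to silence the spindle checkpoint, by 1.07. Pttg1 fell by 0.72 and the condensin gene Ncapg2 by 0.92. Rnaseh2b thus rose with both stimuli, and Pttg1 moved against most of its list with both.

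Of 16 genes for E2F factors, their partners and the retinoblastoma family, 7 fell and 5 rose in WT IFNg/LPS, and 8 rose and 1 fell in WT IL-4. All tested genes gave 37.5% lower and 36.3% higher in IFNg/LPS, so this list was near the background there, and 22.9% higher and 21.1% lower in IL-4. In IFNg/LPS the repressor E2f7 fell by 5.13 and the E2F partners Tfdp2 and Tfdp1 by 2.91 and 1.01. Rbl1 (p107) rose by 2.43, Lin54, the CHR-binding subunit of DREAM, by 1.66 and the mainly repressive E2f4 by 0.52. In IL-4 E2f8 rose by 1.27, Rbl1 by 0.83 and Tfdp1 by 0.39, and Rb1 fell by 0.36. Rbl1 therefore rose with both stimuli, and Tfdp1 fell with IFNg/LPS and rose with IL-4.

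RNA of progenitors, which can divide, was followed with 8 markers. In WT cells their summed signal was 395 to 2171 with M-CSF, 53.2 to 128 with IFNg/LPS and 402 to 1472 with IL-4. In p110g-/- cells it was 628 to 1307, 90.1 to 262 and 388 to 803. Library 1 had the highest sum of each of the 6 groups. Single markers could differ, as Cd34 had 79.9, 151 and 172.2 in WT IL-4. Kit had 156.3, 53.5 and 58 in p110g-/- M-CSF and 179.1, 54.1 and 91.6 in p110g-/- IFNg/LPS. Library 1 was also the lowest for 43 and 40 of the 43 genes in WT and p110g-/- IL-4, and for 41 in p110g-/- M-CSF. In WT M-CSF, however, it was the lowest for only 3 of 43, and in WT and p110g-/- IFNg/LPS for 25 and 17. The part of progenitors in the responses was not tested.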

How the data were processed

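The authors deposited 1 table of normalised signal for 16474 genes in 18 libraries. Per the labels, total RNA was taken with Trizol, and per the submitters' processing notes CASAVA 1.8.2, Bowtie2, DESeq and genome build mm9 were used, with no roles given. The counting method and its treatment of strand and shared reads are not given in the sources used here. This touches Mcm7, Gins2, Tk1, Ccna2, Kif20a, Cdc20, Prc1 and Nusap1, whose exons overlap an opposite-strand coding gene of the table, and Pcna, Tyms, Ccnb1 and Ccnb2, which have named pseudogenes. The deposited signal is a read count divided by 1 factor per library, since in each library 100% of values came out as whole reads within a tolerance of 0.1. Reads were recovered from it. A gene at 0 may have had up to 3 reads expected, a signal of 2.15 to 4.74.

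Log2(signal + 1) was fitted with limma 3.58.1 in R 4.3.3 (6 group means, 12 residual degrees of freedom, trend and robust moderation) on the 15627 genes with signal of at least 10 in at least 3 libraries. Adjustment was by Benjamini and Hochberg over all tested genes in each comparison, at 0.05. Log2 fold changes are on the log2(signal + 1) scale. The scripts were tested on simulated data. Members and lists were chosen with earlier results of these data known. All 43 members are named, with up to 3 genes of smallest adjusted p per further list and direction in each WT response, of which 1 is not reported here. Same-numbered libraries deviated together (every r over 0.1) for the IFNg/LPS response in WT and the IL-4 response in both genotypes. They did so too for the genotype effect in IFNg/LPS (r of 0.546, 0.340 and 0.256). The fit reported ignores this pairing, and the block on library number was run only as an alternative. Alternatives were a pseudocount of 10, no filter, the library number as a block, median centring, edgeR 4.0.16 on recovered reads, libraries 2 and 3 only, and leaving out each library. Figures were drawn with matplotlib 3.10.9. Markers absent from the table were not used here. Promoters are RefSeq sequences of build GRCm38.p6, whereas the notes name mm9, and they were linked to the signal by gene identifier.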

Additional observations from a re-analysis of the deposited data

Results flagged for a closer look

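The difference between genotypes in the IFNg/LPS response of Mcm6 passed the test of that difference (interaction 0.91 on the log2 scale, adjusted p = 0.041 by limma). The response was −1.71 in WT and −0.80 in p110g-/-. Over the alternatives run, its adjusted p ranged from 0.0031 to 0.11.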

How the results depend on the processing

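No log2 fold change of the 43 genes that passed the test changed direction under any alternative run. With libraries 2 and 3 only, 1 replication gene was called lower in M-CSF and 1 (Pcna) in IL-4 for genotype, and in IFNg/LPS 5 replication genes were lower, 1 replication gene higher and 1 mitosis gene higher. Its IFNg/LPS interaction called 1 replication gene lower (Pcna) and 1 mitosis gene higher (Aurkb). Mitosis genes called lower in p110g-/- M-CSF numbered 1 with a pseudocount of 10, 1 with median centring, 2 with edgeR and 4 with the replicate block (Birc5, Nusap1, Ccnb2 and Cdk1, adjusted p of 0.022 to 0.047), against 0. The block also called Gins2 lower in p110g-/- IFNg/LPS (adjusted p = 0.0093). The block also called 1 replication gene higher in the genotype effect in IFNg/LPS, and in its interaction 1 replication gene lower (Cdt1) and 1 mitosis gene higher (Birc5). Median centring called 1 replication gene lower there (Cdt1). The block and the other alternatives changed no other count of members beyond 1.5 times.

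Leaving out 1 library gave 1 to 2 replication genes higher in the WT IFNg/LPS response. In the WT IL-4 response it gave 16 to 21 replication and 7 to 21 mitosis genes higher. In the M-CSF genotype effect it gave 0 to 1 replication and 0 to 13 mitosis genes lower. In the IFNg/LPS genotype effect it gave 0 to 1 replication genes higher. In the IFNg/LPS interaction it gave 0 to 1 replication genes higher, 0 to 1 lower, and 0 to 1 mitosis genes higher. Over all genes, calls were 555 with the block and 683 with libraries 2 and 3 only for genotype in M-CSF (365 in the fit reported), 4143 with libraries 2 and 3 for genotype in IFNg/LPS (2303), 2289 for genotype in IL-4 (520), and 716 and 1703 for the IFNg/LPS interaction (381). The IL-4 interaction called 10 genes with a pseudocount of 10, 8 with the block and 386 with libraries 2 and 3 (0). Median centring moved the median of all genes by 0.12 in the WT IFNg/LPS response, and the share of higher calls in the IFNg/LPS interaction from 41.7% to 29.3%. Where not stated, the cause was not tested.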
